A study of Mus musculus with 6 samples.

Results

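The genes described here make nitric oxide or set the supply of its substrate, arginine, in mouse retina. They were chosen by symbol: Nos1, Nos2 and Nos3 (nitric oxide synthases), Arg1 and Arg2 (arginases), Ass1 and Asl (enzymes that rebuild arginine), and Ddah1 and Ddah2 (enzymes that break down a natural synthase inhibitor). All 9 are among the 22173 genes listed, and 8 of them passed the filter for testing, a value of at least 1 RPKM (reads scaled to gene length and library depth) in at least 3 libraries. Whole retina was collected at postnatal day 17 from wild-type C57BL/6J pups. The 3 OIR libraries are the oxygen-induced retinopathy group, whose pups breathed 75% oxygen from day 7 to day 12 and room air from day 12 to day 17. The 3 Control libraries came from pups in room air from day 7 to day 17. The labels do not say whether libraries are separate animals, so p-values measure the spread between these libraries, which may in part be technical.

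A nitric oxide synthase turns arginine into nitric oxide and citrulline, with calmodulin as activator and tetrahydrobiopterin as cofactor. Nitric oxide binds soluble guanylate cyclase, whose product cGMP relaxes vessel walls and modulates retinal neurons. Arginases compete for the same arginine and yield ornithine, the precursor of polyamines. In oxygen-induced retinopathy the oxygen phase closes retinal capillaries, and once pups breathe room air again the underperfused retina grows abnormal vessels.

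The recovered depth was 36617655 to 38025623 reads in OIR libraries and 35615501 to 37199172 reads in Control libraries. Nrl, a transcription factor of rod photoreceptors, was at 652 to 675.9 RPKM in OIR libraries and 539.3 to 590.6 RPKM in Control libraries. In the limma test reported below, Nrl was itself called higher in OIR, at a log2 fold change of 0.23 and an adjusted p of 0.0449. Control 3 stood apart, with 6.44% of its gene reads from 19 lens genes. OIR 2 held 0.555%, and the other 4 libraries held 0.0149% to 0.0583%. Results that turn on these libraries are given with and without them.

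The level of these genes spanned nearly the whole range from weak to well expressed. In OIR retinas the order of mean RPKM was Ddah1 (29.98), Ass1 (25.6), Asl (15.9), Ddah2 (15.7), Arg2 (10.8), Arg1 (2.93), Nos3 (2.41), Nos1 (1.71) and Nos2 (0.419). In Control retinas it was Ddah1 (27.8), Ass1 (26.7), Asl (13.2), Ddah2 (12.6), Arg2 (10.4), Arg1 (3.13), Nos1 (2.20), Nos3 (1.84) and Nos2 (0.138). Neighbours whose ranges overlapped were Asl with Ddah2 and Arg1 with Nos3 in OIR, and Ddah1 with Ass1, Asl with Ddah2, Ddah2 with Arg2, and Nos1 with Nos3 in Control. Nos1 and Nos3 exchanged places between the groups, and the order of the other 7 genes was shared.

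**Figure D1:**
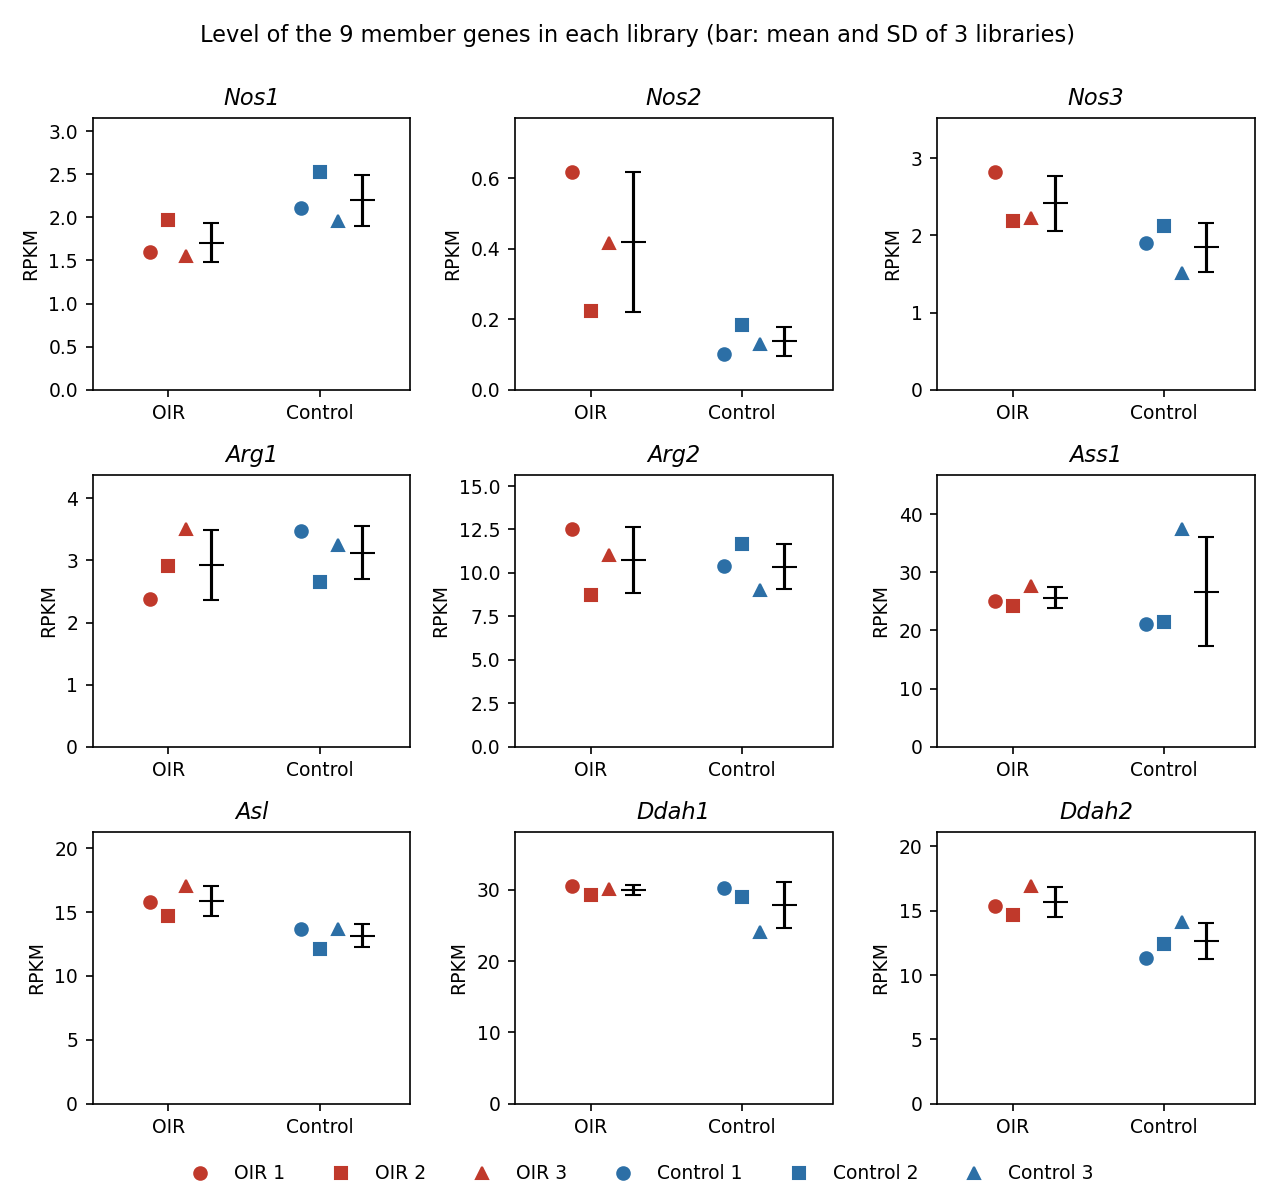
RPKM of the 9 genes in each library, OIR at the left of each panel and Control at the right, with a marker shape for each replicate number and the mean with SD of 3 libraries beside the points. Nos2, Nos3, Asl and Ddah2 do not overlap between the groups, and the Ass1 value of 37.5 RPKM in Control 3 lies above the other 5.

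Of the 8 tested genes, Asl and Ddah2 were higher in OIR at an adjusted p under 0.05 (limma, Benjamini-Hochberg over 12112 genes), and the other 6 did not pass. Over all genes tested 18.8% were called, 11.6% as higher and 7.22% as lower, so 2 of 8 is near the background. The groups did not overlap for 3 of the 8, against 38.7% of all genes tested, and these 3 lay above Control, against 23.6%. At an unadjusted p under 0.05 there were 4 of 8, against 34.0%. With median-of-ratios scaling, upper-quartile scaling or lens genes removed, none of the 8 passed in limma (4 at an unadjusted p under 0.05 each). Higher genes then made up 51.2%, 46.9% and 52.7% of all calls, against 61.7% in the fit reported. The median log2 fold change was 0.08 over these 8 genes and 0.03 over all genes tested.

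Among the synthases, Nos2 showed the widest separation, at a low level. Nos2 encodes the inducible synthase, best known from activated macrophages. It was at 0.617, 0.223 and 0.416 RPKM in OIR 1 to 3, against 0.1001, 0.182 and 0.131 RPKM in Control 1 to 3. Each OIR value lay above each Control value, and the means had a ratio of 3.04. These values rest on 98, 35 and 68 reads in OIR, against 16, 29 and 20 reads in Control. The exact 95% Poisson interval, which covers counting error alone, was 24.4 to 48.7 reads in OIR 2 and 19.4 to 41.7 reads in Control 2, so those 2 libraries could not be told apart by counting.

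Nos2 was below the filter, and its difference of 0.281 RPKM had an exact two-sided permutation p of 0.1, the smallest that 3 against 3 libraries allow. In limma with no filter its adjusted p was 0.0862, at a log2 fold change of 0.31 on the log2(RPKM + 1) scale, and it was 0.0612 with a filter of 0.1 RPKM. In limma-voom on recovered reads with at least 10 reads, an alternative chosen after its values were seen, Nos2 passed at an adjusted p of 0.0456 with a log2 fold change of 1.504 (SE 0.475). In that fit 10.3% of 16431 genes were called higher. The ratio of the means ran between 2.32 without OIR 1 and 3.76 without OIR 2.

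Markers of myeloid cells moved with Nos2. Of 13 tested markers of 15, 11 were higher in OIR and none was lower (11 at an unadjusted p under 0.05, and 11 called with limma-voom), and no marker was at 0 in all libraries. Their summed level was 106 to 143 RPKM in OIR and 36.4 to 40.3 RPKM in Control, led by C1qb, C1qa and C1qc. Per 1000 RPKM of these markers, Nos2 stood at 3.13 ± 1.16 in OIR and 3.62 ± 1.11 in Control (SD, n = 3 each; exact permutation p = 0.6). The part of the myeloid cells in the Nos2 difference was not tested. In bulk tissue, more cells of a type and more RNA per cell cannot be told apart.

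Nos3 encodes the endothelial synthase, which relaxes vessels. It was at 2.82, 2.19 and 2.23 RPKM in OIR 1 to 3, against 1.90, 2.12 and 1.51 RPKM in Control 1 to 3. The groups did not overlap, but 2.19 RPKM in OIR 2 and 2.12 RPKM in Control 2 nearly met. Nos3 did not pass, with a log2 fold change of 0.26 (95% interval 0.02 to 0.51) and an adjusted p of 0.113. In none of its 16 alternatives did it pass, with adjusted p from 0.0678 to 0.380.

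The sum of the endothelial markers was separated further than Nos3, though not each marker was. Of 15 tested markers of 16, 13 were higher in OIR and none was lower, with a median log2 fold change of 0.94, and none was at 0 in all libraries. Their summed level was 139 to 152 RPKM in OIR and 76.3 to 81.4 RPKM in Control, a ratio of 1.82 beside 1.31 for Nos3. Per 1000 RPKM of these markers Nos3 was at 18.6, 15.7 and 15.7 in OIR 1 to 3, against 23.5, 26.1 and 19.8 in Control 1 to 3. Relative to this list, each OIR value of Nos3 lay below each Control value (exact permutation p = 0.1, the smallest possible). A gene that rises less than the sum falls in this quotient, so it shows no fall of Nos3 itself. The level of Nos3 per endothelial cell was not tested.

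Annotation limits what is known of Nos3. In GENCODE M21 it shares 1040 exonic bases with the antisense gene Gm15587 and 294 with Atg9b, both on the opposite strand, and the strand setting of the counting is not given in the sources used here. Atg9b was at 0.696 ± 0.193 RPKM in OIR and 0.405 ± 0.0579 RPKM in Control (SD, n = 3 each). Gm15587 is not among the genes listed, and the part of either in the Nos3 values was not tested. Nos1 shares 268 exonic bases with the antisense gene Gm26995, also not among the genes listed.

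Nos1 encodes the neuronal synthase, found in a subset of amacrine cells of the inner retina. It was at 1.599, 1.966 and 1.549 RPKM in OIR 1 to 3, against 2.105, 2.528 and 1.961 RPKM in Control 1 to 3. The groups overlapped narrowly, through OIR 2 and Control 3. The log2 fold change was -0.24 (95% interval -0.46 to -0.02) with an adjusted p of 0.116, so Nos1 did not pass.

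For Nos1 the sign was negative in every alternative, and the call depended on the processing. It passed without OIR 2, at a log2 fold change of -0.31 and an adjusted p of 0.0438, and in limma-voom on recovered reads, at -0.37 and 0.0476. Without both lens-rich libraries it passed at -0.36 and 0.0249. The limma-voom value is not on the log2(RPKM + 1) scale, which understates changes of low genes, so its size is not comparable with the others. Of 14 amacrine markers, 9 were lower and Npy, named after its values were seen, was higher in OIR. The lower markers numbered 4 without OIR 1, 6 without OIR 3 and 3 without Control 1. The summed level of all 14 markers was 350.4 to 421.5 RPKM in OIR and 426.6 to 494.4 RPKM in Control, with none at 0 in all libraries. Per 1000 RPKM of these markers Nos1 was at 4.44 ± 0.306 in OIR and 4.69 ± 0.483 in Control (SD, n = 3 each; exact permutation p = 0.5).

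**Figure D2:**
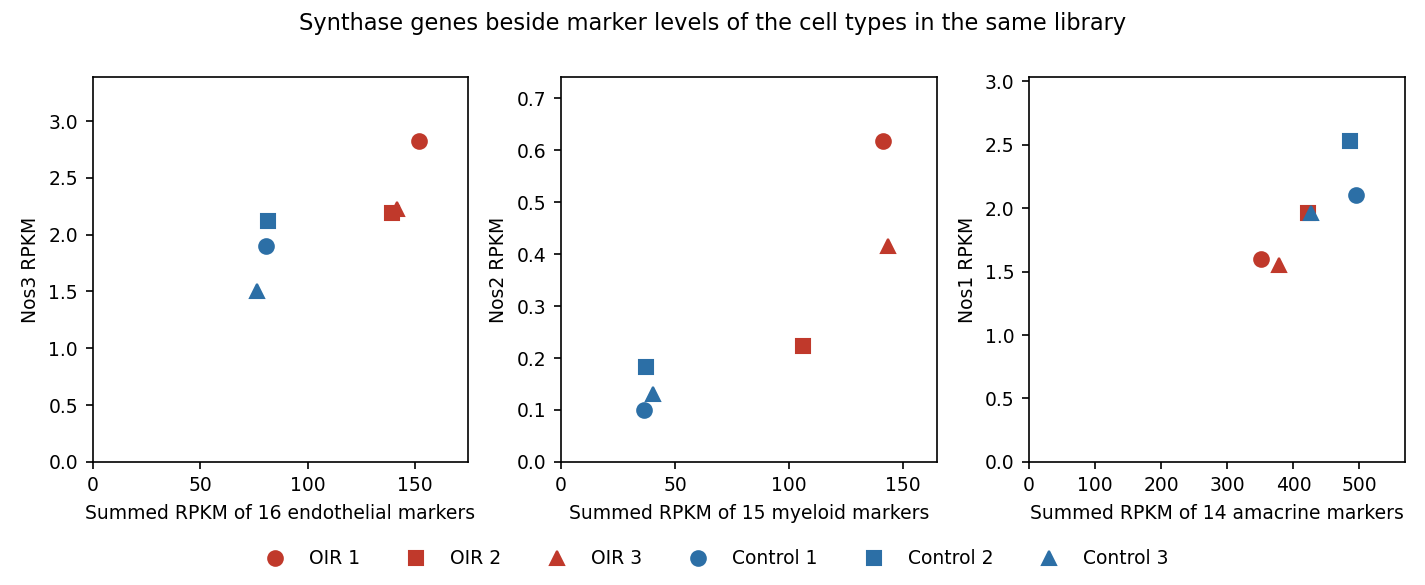
Each panel plots 1 synthase gene (RPKM, vertical) against the summed RPKM of the markers of 1 cell type in the same library (horizontal), for OIR and Control libraries. The endothelial sum had a ratio of 1.82 between the groups beside 1.31 for Nos3, while the myeloid sum was 106 RPKM or more in OIR and 40.3 RPKM or less in Control.

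Within a library the balance of the synthases differed between the groups, a comparison that does not depend on scaling between libraries. Nos3 over Nos1 was 1.77, 1.11 and 1.44 in OIR 1 to 3, against 0.902, 0.840 and 0.769 in Control 1 to 3. Nos3 thus exceeded Nos1 in each OIR library and was below it in each Control library (exact permutation p = 0.1, the smallest possible). Nos1 made up 31.7% to 44.9% of the summed synthase RPKM in OIR and 51.3% to 54.5% in Control. Nos2 made up 5.08% to 12.3% in OIR and 2.44% to 3.77% in Control. The sum itself overlapped, at 4.195 to 5.04 RPKM in OIR and 3.60 to 4.84 RPKM in Control. These ratios were formed after the single values were seen.

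**Figure D3:**
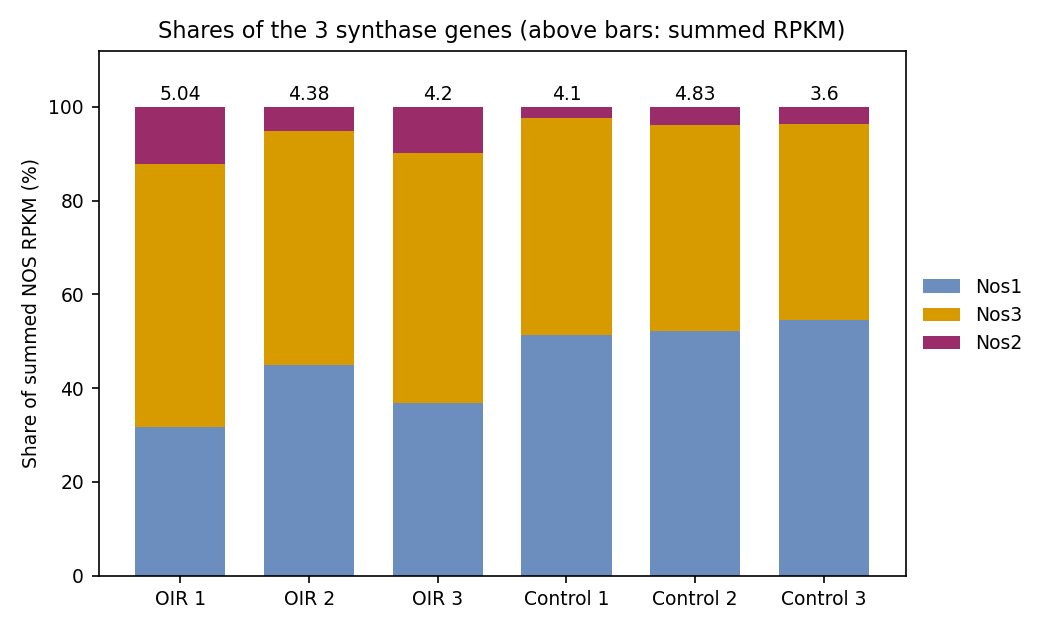
Share of Nos1, Nos3 and Nos2 in the summed RPKM of the 3 synthase genes (vertical, percent) in each OIR and Control library, with the summed RPKM above each bar. The Nos1 share is 44.9% or less in OIR and 51.3% or more in Control.

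The arginases showed no separation. Arg1, the cytosolic arginase of liver and of some macrophages, was at 2.38, 2.90 and 3.51 RPKM in OIR 1 to 3, against 3.48, 2.65 and 3.25 RPKM in Control 1 to 3. Arg2, the mitochondrial arginase of many tissues, was at 12.5, 8.75 and 11.02 RPKM in OIR 1 to 3, against 10.4, 11.6 and 9.04 RPKM in Control 1 to 3. Both genes overlapped between the groups. Arg2 was the more abundant arginase in every library, at 2.78 to 5.26 times Arg1.

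The log2 fold change was -0.07 for Arg1 (95% interval -0.33 to 0.19, adjusted p 0.696) and 0.05 for Arg2 (-0.24 to 0.33, adjusted p 0.831). Arg1 did not move with the myeloid markers, whose sum had a ratio of 3.42 between the groups. Per 1000 RPKM of them Arg1 stood at 22.9 ± 5.42 in OIR and 82.3 ± 12.4 in Control (SD, n = 3 each), with no overlap (exact permutation p = 0.1). An unchanged gene falls in this quotient, so it adds nothing on Arg1 beyond its own fold change. Arg2 shares 116 exonic bases in GENCODE M21 with the antisense gene Gm48780, not among the genes listed, and 285 with Vti1b on the opposite strand, which was at 11.5 ± 0.492 RPKM in OIR and 11.9 ± 0.253 RPKM in Control.

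Arginine is rebuilt from citrulline in a pair of steps. Ass1, argininosuccinate synthase, takes the first step, and its values turned on 1 library. Ass1 was at 25.03, 24.25 and 27.6 RPKM in OIR 1 to 3, against 21.05, 21.4 and 37.5 RPKM in Control 1 to 3. The lens-rich Control 3 was the highest of the 6 libraries, while OIR 2, the other lens-rich library, was the lowest of the OIR group. With 6 libraries the log2 fold change of Ass1 was -0.01 (95% interval -0.61 to 0.60, adjusted p 0.989). Without Control 3 it was 0.26 and passed, at an adjusted p of 0.0387, and without both lens-rich libraries it was 0.30, at 0.00908. Removing the lens genes and rescaling left it at -0.03 and 0.938. That step changes the scaling alone and cannot take out Ass1 reads that came with the lens reads. The part of other tissue in the Ass1 values was not tested.

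Asl, argininosuccinate lyase, takes the second step and releases arginine. It was at 15.8, 14.7 and 17.05 RPKM in OIR 1 to 3, against 13.7, 12.1 and 13.7 RPKM in Control 1 to 3. Each OIR value lay above each Control value, with a ratio of the means of 1.205. Asl rose by a log2 fold change of 0.25 (SE 0.0785) at an adjusted p of 0.0474, and its sign was positive in all 16 alternatives. The call ended in 12 of them, among them those without OIR 1, OIR 3, Control 1, Control 2 or Control 3, with adjusted p values of 0.143, 0.193, 0.0927, 0.156 and 0.0531. Without both lens-rich libraries, a fit added after seeing the data, Asl was at 0.33 with an adjusted p of 0.0118. In that fit 4037 of all genes were called, against 2282 in the fit reported.

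Ddah1 and Ddah2 encode dimethylarginine dimethylaminohydrolases, which degrade asymmetric dimethylarginine, an inhibitor of the synthases made from methylated proteins. Ddah2 was at 15.4, 14.7 and 16.9 RPKM in OIR 1 to 3, against 11.3, 12.4 and 14.2 RPKM in Control 1 to 3. The groups did not overlap, and the ratio of the means was 1.24. Ddah2 rose by a log2 fold change of 0.29 (SE 0.0884) at an adjusted p of 0.0429, with a positive sign in all 16 alternatives. Its call ended in 9 of these, among them those without OIR 1, OIR 3, Control 1 or Control 2, at 0.118, 0.161, 0.163 and 0.103. Ddah2 was at 0.37 without Control 3 (adjusted p 0.0226) and at 0.41 without both lens-rich libraries (adjusted p 0.00388).

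Ddah1 was the most abundant of the 9 genes on this per-length scale. It was at 30.6, 29.3 and 30.1 RPKM in OIR 1 to 3, against 30.3, 29.0 and 24.2 RPKM in Control 1 to 3. The OIR values lay close together and near Control 1 and Control 2, with Control 3 as the lowest of the 6. The log2 fold change was 0.11 (95% interval -0.07 to 0.29, adjusted p 0.387), and it was 0.0148 without Control 3 and 0.0317 without both lens-rich libraries. Per 1000 RPKM of the endothelial markers, Ddah2 was at 108.6 ± 9.52 in OIR and 159.5 ± 23.4 in Control (SD, n = 3 each), with no overlap (exact permutation p = 0.1). The marker sum had a ratio of 1.82 between the groups and Ddah2 one of 1.24. A gene that rises less than the sum falls in this quotient, so it shows no fall of Ddah2 itself. The part of endothelial cells in the Ddah2 values was not tested. Ddah2 over Ddah1 was 0.522 ± 0.0347 in OIR and 0.463 ± 0.110 in Control (SD, n = 3 each) and overlapped between the groups.

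Upstream sequences are shown for Ddah2, which passed, and for Ass1, whose call turned on 1 library. They are the 250 bases before the gene start in a table of promoters made from RefSeq on GRCm38.p6. Of the 9 genes, Ass1, Ddah1, Nos1 and Ddah2 were matched in the table used here, and the other 5 were not analysed here. The build behind the deposited values is not given in the sources used here. Capitals mark matches to ACGTG or GCGTG, the core letters bound by hypoxia-inducible factors, on either strand. Each sequence is written 5′ to 3′ on the plus strand, which is the gene's strand.
Ddah2, chr17:35058785-35059034: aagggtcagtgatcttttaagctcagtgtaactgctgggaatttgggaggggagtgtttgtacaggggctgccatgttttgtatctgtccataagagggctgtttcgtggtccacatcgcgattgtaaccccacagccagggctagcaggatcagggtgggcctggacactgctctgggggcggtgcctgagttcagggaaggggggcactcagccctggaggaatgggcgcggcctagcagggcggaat
Ass1, chr2:31470020-31470269: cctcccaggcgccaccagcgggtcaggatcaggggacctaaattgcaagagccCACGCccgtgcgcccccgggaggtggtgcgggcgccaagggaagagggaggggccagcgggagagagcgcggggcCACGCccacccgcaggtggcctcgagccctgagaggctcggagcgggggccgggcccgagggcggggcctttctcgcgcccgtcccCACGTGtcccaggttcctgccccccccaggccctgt

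Ddah2 and Nos1 held neither motif in this window, and Ddah1 held 1 match to GCGTG. Ass1 held 2 matches to GCGTG on the minus strand and 2 overlapping matches to ACGTG, 1 on each strand, within the letters CACGTG at 36 to 31 bases before the start. Of 32851 promoters of the same length, 16.6% held ACGTG, 28.2% held GCGTG and 38.6% held either. A match describes letters only.

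**Figure D4:**
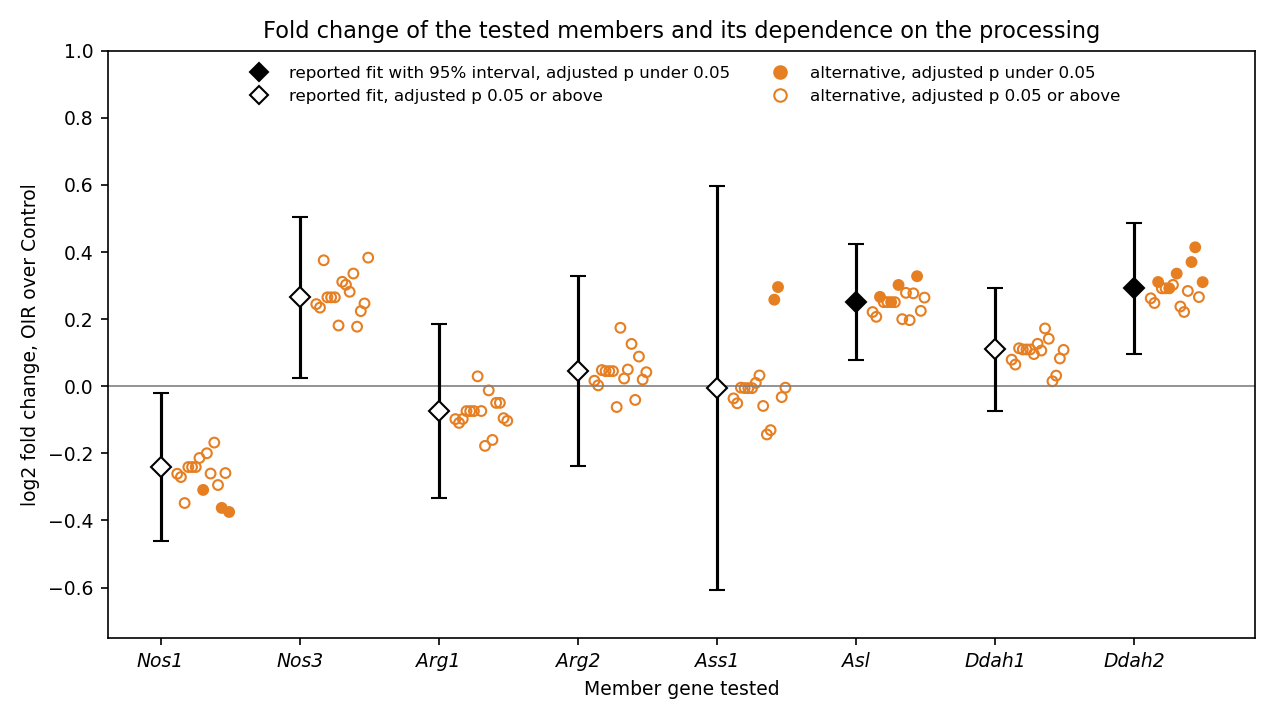
Log2 fold change, OIR over Control, of the 8 tested genes, with the reported limma fit and its 95% interval as a diamond and 15 alternatives as circles to its right. Symbols are filled where the adjusted p is under 0.05. For Asl and Ddah2 both open and filled circles lie above 0, and the 2 filled circles of Ass1 are the fits without Control 3 and without both lens-rich libraries.

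Genes whose profile over the 6 libraries was most like that of a called gene were found by the root mean square difference of centred log2 values. For Asl they were Asphd1 (0.0205), Tmem42 (0.0219) and Glo1 (0.0271), beside a root mean square of 0.149 for Asl about its own mean. For Ddah2 they were Mri1 (0.0267), Fbl (0.0349) and Ajuba (0.0355), beside 0.179 for Ddah2. The profiles include the difference between OIR and Control, so a call among genes picked this way is no separate result. Of these 6 genes, Fbl, which encodes the nucleolar methyltransferase fibrillarin, passed the test, at a log2 fold change of 0.31 and an adjusted p of 0.0250. Its call ended without OIR 1, OIR 3, Control 1 or Control 2, at 0.0887, 0.106, 0.106 and 0.0573.

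Among the genes around these enzymes, 55 of 68 on 6 lists were tested, and 9 were higher and 12 lower in OIR, 38.2% of those tested against 18.8% of all genes. The lists were chosen with earlier results of these data known, so the larger share cannot be read as a result about these pathways. The split turned with single libraries left out, to 6 higher and 2 lower without OIR 1, 8 and 5 without OIR 3, 7 and 4 without Control 1, and 8 and 6 without Control 2. Of 8 tested genes of the nitric oxide receptor and cGMP list, 5 were lower and 2 higher, with a median log2 fold change of -0.36. There were 2 higher and 1 lower without OIR 1, Control 1 or Control 2, and 2 of each without OIR 3, while the median stayed between -0.44 and -0.30 with any single library left out. The amacrine markers had a median of -0.38 beside it, and of 12 Müller glia markers 6 were lower and 3 higher, with a median of -0.14. Those counts were 2 and 2 without OIR 1, 5 and 1 without OIR 3, and 4 and 1 without Control 1. Müller glia markers summed to 2624 to 2787 RPKM in OIR and 2812 to 2969 RPKM in Control, with none at 0 in all libraries, and the part of these cells in the list's values was not tested. Gucy1b1, the beta subunit of soluble guanylate cyclase, was at 36.5, 43.6 and 35.5 RPKM in OIR 1 to 3, against 58.4, 58.8 and 48.5 RPKM in Control 1 to 3. Each OIR value lay below each Control value, and Gucy1b1 fell by 0.51 on the log2 scale (SE 0.0968, adjusted p 0.00782), a call that held in all 16 alternatives. Its partner Gucy1a1, the alpha subunit, was named after its values were seen. It was at 41.8 ± 4.70 RPKM in OIR and 54.5 ± 6.59 RPKM in Control (SD, n = 3 each) and fell by 0.37 (adjusted p 0.0311). That call ended without OIR 1, OIR 3, Control 1 or Control 2, at 0.121, 0.102, 0.117 and 0.101.

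Enzymes that break down cGMP moved in both directions. Pde2a, a phosphodiesterase that cGMP stimulates, was at 7.54 ± 1.08 RPKM in OIR and 4.63 ± 0.194 RPKM in Control (SD, n = 3 each) and rose by 0.59 (adjusted p 0.00378). Pde1a, a calmodulin-dependent phosphodiesterase, was at 1.06 ± 0.0304 RPKM in OIR and 1.71 ± 0.199 RPKM in Control and fell by 0.39 (adjusted p 0.0151). At this low level the log2(RPKM + 1) scale understates the change. The ratio of its means was 0.622, and limma-voom gave a log2 fold change of -0.68. The call of Pde1a ended without OIR 1, Control 1 or Control 2, at 0.0580, 0.0620 and 0.0593. Vasp, an actin regulator that cGMP-dependent kinase phosphorylates, was at 11.2 ± 1.36 RPKM in OIR and 6.49 ± 1.09 RPKM in Control and rose by 0.70 (adjusted p 0.00394). The other 2 called genes, Pde1c and the potassium channel gene Kcnma1, were named after their values were seen. They fell by 0.36 each, and both calls ended without OIR 1, OIR 3, Control 1 or Control 2, at adjusted p from 0.0747 to 0.107.

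Of 12 tested partner proteins of the synthases, 1 was higher and 3 were lower, 33.3% called against 18.8% of all genes tested. Without OIR 1 none of them was called. Calm2 and Calm3 encode calmodulin, which serves many enzymes beside the synthases. Calm2 was at 351.2 ± 41.1 RPKM in OIR and 465.3 ± 21.5 RPKM in Control (SD, n = 3 each), and Calm3 was at 329.2 ± 33.6 RPKM in OIR and 395.2 ± 8.57 RPKM in Control. They fell by 0.41 and 0.27 on the log2 scale, at adjusted p of 0.0121 and 0.0429. Both calls ended without OIR 1, at 0.0661 and 0.196, and without Control 1, at 0.0601 and 0.138. The call of Calm3 also ended without OIR 3, at 0.153, and without Control 2, at 0.103. Of the 5 tested genes of tetrahydrobiopterin metabolism none passed in the fit reported or in limma-voom, and 2 had an unadjusted p under 0.05 in limma. The nearest were Pcbd1 and Qdpr, which recycle the cofactor, at log2 fold changes of -0.33 and -0.18 and adjusted p of 0.0530 and 0.0626. Qdpr passed without OIR 2 (0.0406), without both lens-rich libraries (0.0148), with median-of-ratios scaling (0.0363), with upper-quartile scaling (0.0300) and with lens genes removed (0.0359). Pcbd1 passed without Control 2 (0.0119), with lens genes removed (0.0464) and with the replicate block (0.0231).

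Genes of arginine import and of polyamine turnover included higher calls. Slc7a1, the main cationic amino acid transporter of many cells, was at 4.63, 4.10 and 4.54 RPKM in OIR 1 to 3, against 3.01, 2.84 and 2.52 RPKM in Control 1 to 3, with no overlap. It rose by 0.52 (SE 0.0850, adjusted p 0.00375), a call that held in all 16 alternatives. Slc3a2, the heavy chain shared by several amino acid transporters, was at 16.6 ± 1.89 RPKM in OIR and 13.3 ± 0.509 RPKM in Control (SD, n = 3 each). It rose by 0.29 (adjusted p 0.0352), a call that ended without OIR 1, OIR 3, Control 1, Control 2 or Control 3, at 0.120, 0.153, 0.124, 0.0812 and 0.0506. The other 2 tested transporters, Slc7a2 and Slc7a6, were named after their values were seen and did not pass, at log2 fold changes of -0.57 and 0.13 and adjusted p of 0.0590 and 0.324. Slc7a2 passed without Control 1 (0.0395), without Control 3 (0.0365), without both lens-rich libraries (0.0186) and with a pseudocount of 0.1 (0.0444).

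Of 17 tested genes of ornithine, polyamine and creatine metabolism, 4 were higher and 2 lower, 35.3% called against 18.8% of all genes tested. Sat1, which acetylates polyamines for breakdown and export, was at 47.4, 40.0 and 52.1 RPKM in OIR 1 to 3, against 24.9, 20.98 and 22.02 RPKM in Control 1 to 3. The groups were far apart, and Sat1 rose by 1.001 (SE 0.0990, adjusted p 0.000301). Odc1, ornithine decarboxylase, which starts polyamine synthesis, was at 67.6 ± 8.15 RPKM in OIR and 48.8 ± 0.792 RPKM in Control (SD, n = 3 each) and rose by 0.46 (adjusted p 0.00608). Gatm, the first enzyme of creatine synthesis, which uses arginine, was at 1.42 ± 0.139 RPKM in OIR and 0.536 ± 0.0657 RPKM in Control and rose by 0.65 (adjusted p 0.00151). The log2(RPKM + 1) scale understates this change at a low level. The ratio of the means was 2.64 for Gatm, beside 2.05 for Sat1, and limma-voom gave Gatm a log2 fold change of 1.39. The calls of Sat1, Odc1 and Gatm held in all 16 alternatives.

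Aldh18a1, which makes a precursor of proline and ornithine from glutamate, was at 12.1 ± 0.0740 RPKM in OIR and 9.17 ± 1.07 RPKM in Control and rose by 0.37 (adjusted p 0.0138, and 0.0604 and 0.0651 without OIR 1 and Control 1). The 2 lower genes, named after their values were seen, were Sms, spermine synthase, and Prodh, proline dehydrogenase, with falls of 0.24 and 0.30 at adjusted p of 0.0307 and 0.0398. Both calls ended without OIR 1, OIR 3, Control 1 or Control 2, at adjusted p from 0.0670 to 0.152, and that of Prodh also without Control 3, at 0.0536. Of 9 protein arginine methyltransferases, whose methylated products release dimethylarginine, 2 were lower. That is 22.2% called, near the 18.8% of all genes tested. Prmt8, a brain-enriched member, was at 11.3 ± 0.912 RPKM in OIR and 15.6 ± 1.27 RPKM in Control and fell by 0.44 (adjusted p 0.00690). Prmt2 was at 23.7 ± 1.299 RPKM in OIR and 29.7 ± 0.892 RPKM in Control and fell by 0.31 (adjusted p 0.0107, and 0.0625 without OIR 1).

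**Figure D5:**
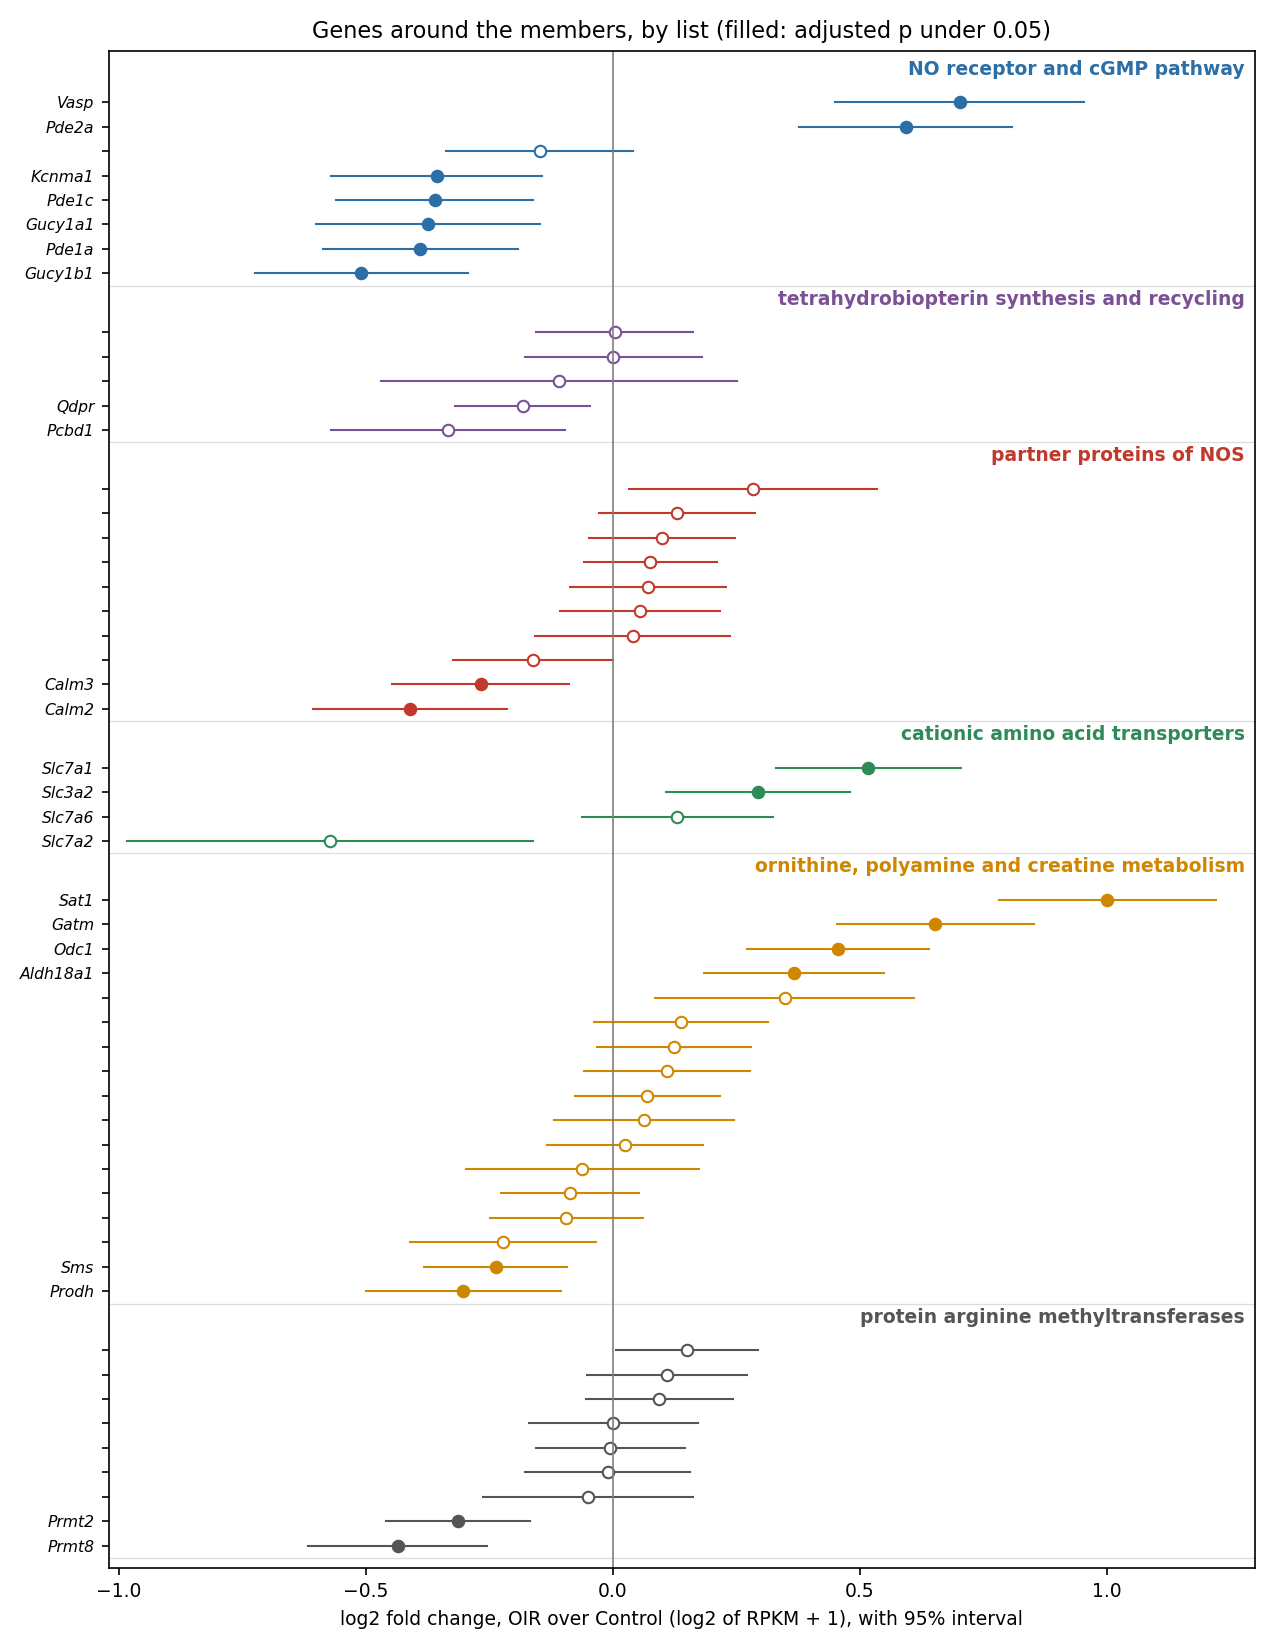
Log2 fold change, OIR over Control, on the log2(RPKM + 1) scale for 53 of the 55 tested genes around the 9 enzymes, with 95% intervals, grouped and coloured by list, with names for the genes described in the text. Filled circles mark the 19 genes of these 53 with an adjusted p under 0.05, with Sat1 at 1.001 as the highest and Gucy1b1 at -0.51 as the lowest of them.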

How the data were processed

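Values were taken as deposited, 1 RPKM value per gene symbol and library. The authors' unit is not named in the files and was inferred from the values, whose sums differ between libraries and whose low genes take fixed steps. Per the submitters' processing notes, the tools were Bowtie2 2.0.6 with TopHat2 2.0.12. Not given in the sources used here are the genome build, annotation, counting program and strand setting. The library protocol in the labels describes another species. The libraries' relative depth came from low genes, whose values step by 1 read. Lengths of GENCODE M21 transcripts gave the absolute depth through the 101 genes, of 696 low genes tried, that pointed most closely to 1 value. Of 17953 genes above 0, 17952 came out as whole reads within 0.02 of a read. Gene lengths were searched for this match, which genes seen in few libraries meet more easily.

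The test was limma 3.58.1 in R 4.3.3 (trend and robust) on log2(RPKM + 1), OIR minus Control, with group as the only term, two-sided, with Benjamini-Hochberg adjustment over 12112 genes and a threshold of 0.05. This scale understates changes of low genes. The fit was tested on simulated data. Alternatives were 2 other scalings, no filter, a replicate block, a filter of 0.1 RPKM, a pseudocount of 0.1, each library left out, lens genes removed and limma-voom on recovered reads. Leaving out both lens-rich libraries and limma-voom with at least 10 reads were added after seeing the data. Libraries left out kept the same tested genes. The members and gene lists were chosen with earlier results of these data known. Named genes are the 9 members, up to 4 called genes per list (2 with the smallest adjusted p where none passed) and the 3 most alike genes of each called member, passing over predicted and unnamed gene models, pseudogenes, Xist and Y-linked genes. Genes outside this rule are marked where named, and some genes of the lists are not reported here by name.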

Additional observations from a re-analysis of the deposited data

How the results depend on the processing

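The count of called genes among the 9, which was 2, was 0 in limma with median-of-ratios scaling, upper-quartile scaling or lens genes removed (4 each at an unadjusted p under 0.05), and 0 with no filter or a filter of 0.1 RPKM (5 each). It was 4 without both lens-rich libraries, and 0 to 3 with single libraries left out. Of the pathway genes 21 were called, and 8 to 24 with single libraries left out, the lowest without OIR 1, then 11 without Control 1, 13 without OIR 3 and 14 without Control 2. Over all genes 2282 were called, 725 to 3047 with single libraries left out (725 without OIR 1, 923 without Control 1, 1045 without OIR 3, 1362 without Control 2) and 4037 without both lens-rich libraries. Higher genes made up 61.7% of all calls, but 51.2% with median-of-ratios scaling, 46.9% with upper-quartile scaling and 52.7% with lens genes removed. Signs turned for Ass1, to 0.30 without both lens-rich libraries, and with single libraries left out it ran from -0.14 to 0.26, above 0 without OIR 1, OIR 2 or Control 3. Arg1 ran from -0.178 to 0.0295, above 0 without OIR 1. Arg2 ran from -0.062 to 0.174, below 0 without OIR 1 or Control 3. The Nos2 difference ran from 0.182 to 0.379 RPKM. Same-numbered libraries did not deviate together (correlations over genes of 0.222, -0.440 and -0.414). The highest correlation, 0.493, was between the lens-rich OIR 2 and Control 3. A difference shared by these libraries can hide a pairing, so this check cannot show whether the numbers pair libraries. With the replicate block, 2 of the 9 genes, 22 pathway genes and 2031 of all genes were called. Of the named genes, Calm3 lost its call (0.0535) and Pcbd1 passed (0.0231) under the block. The cause of these shifts was not tested. With 3 libraries a group, exact tests could not go below 0.1, and Nos2 rests on under 100 reads a library.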
